A study of Homo sapiens with 6 samples.

Results

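The host genes of small nucleolar RNAs (snoRNAs) were examined in HK-2, a human cell line established from the proximal tubule of the kidney, with and without overexpression of hnRNP-F, an RNA-binding splicing regulator. The list was taken by name from the count table and holds every gene whose symbol is SNHG (small nucleolar RNA host gene) followed by a number, together with GAS5, ZFAS1, EPB41L4A-AS1, DANCR, TAF1D, CYTOR and MEG3. It has 34 members among 31831 genes. All cells received lentivirus and were kept for 72 h in medium with 30 mM glucose, per the study's methods. The HG-NC group (3 libraries) carried the empty control vector, and the HG-OE group (3 libraries) carried the HNRNPF construct. The study's methods describe parallel wells for each group, while its results call the libraries biological replicates. All came from 1 line, so the p-values measure the spread between cultures of that line.

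Most snoRNAs of human cells lie in introns and are cut out of the intron after the host transcript is spliced. Box C/D snoRNAs guide 2′-O-methylation and box H/ACA snoRNAs guide pseudouridylation, mostly on ribosomal RNA, and small Cajal body RNAs (scaRNAs) guide the same reactions on spliceosomal RNAs. Many hosts encode no long protein: their spliced exons are left as a polyadenylated long non-coding RNA, and for several of them, GAS5 among them, this RNA is known to be broken down by nonsense-mediated decay. A count on the spliced poly(A) transcript therefore does not measure the snoRNA itself. Many hosts, like ribosomal protein genes, start transcription at a C within a run of pyrimidines, the 5′ terminal oligopyrimidine (TOP) start.

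By annotation, 32 of the 34 members hold at least 1 snoRNA or scaRNA inside their span. Of these, 12 hold only box C/D snoRNAs, 12 only box H/ACA snoRNAs, 4 both kinds and 4 a scaRNA. CYTOR and MEG3 hold none in the annotation used, so by this measure neither is a host. GAS5 holds 11, SNHG1, TAF1D and SNHG17 hold 8, 8 and 5, and SNHG14, the long transcript of the imprinted Prader-Willi region, holds 84.

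The start regions of 7 hosts are printed here as examples of hosts that were lower in HG-OE (SNHG1, SNHG12 and SNHG17), abundant (GAS5 and ZFAS1) or higher in HG-OE (SNHG4 and DANCR). Each window runs from 40 bases before the RefSeq start to 20 bases from it, on the gene's strand of GRCh38.p14. Capitals mark the unbroken run of C or T that begins at the first transcribed base.
SNHG1: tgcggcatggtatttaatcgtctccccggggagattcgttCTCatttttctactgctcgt
SNHG12: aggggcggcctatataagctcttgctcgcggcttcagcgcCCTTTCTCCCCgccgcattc
SNHG17: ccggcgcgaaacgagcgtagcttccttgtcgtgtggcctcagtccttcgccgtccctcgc
GAS5: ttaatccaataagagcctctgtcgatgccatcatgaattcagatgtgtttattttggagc
ZFAS1: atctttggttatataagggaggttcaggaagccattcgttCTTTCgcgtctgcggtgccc
SNHG4: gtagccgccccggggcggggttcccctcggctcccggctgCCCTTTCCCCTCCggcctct
DANCR: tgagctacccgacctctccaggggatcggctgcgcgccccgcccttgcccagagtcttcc
The windows lie at chr11:62855866-62855925, chr1:28581854-28581913, chr20:38435309-38435368, chr1:173869026-173869085, chr20:49278602-49278661, chr5:139274061-139274120 and chr4:52712354-52712413, in the order printed. SNHG12, ZFAS1 and SNHG4 began with a C and at least 5 pyrimidines, SNHG1 began with a run of 3, and SNHG17, GAS5 and DANCR began with a purine at the RefSeq start. RefSeq may place a start away from the one used in these cells. In the GENCODE 44 annotation GAS5 starts at chr1:173868882, so its printed window lies outside that span.

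Among the 30 members with a RefSeq promoter entry, 8 began with a C and at least 5 pyrimidines (26.7%). The share was 4.04% over 27305 promoters and 68.3% over 63 cytosolic ribosomal protein genes. The letters TATAA, searched on the gene's strand between 40 and 20 bases before the start, were found in 6 members (20%), against 4.07% of all promoters. SNHG12, ZFAS1, SNHG5 and SNHG19 held both features.

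HNRNPF itself was higher in every HG-OE library. Levels are given as CPM, counts scaled to a common library size with the TMM factors of edgeR. HNRNPF stood at 311 ± 7.23 CPM in HG-NC against 435 ± 14.9 CPM in HG-OE (mean ± SD over 3 libraries each, exact two-sided permutation p = 0.1, the smallest that 3 against 3 allow). The fitted change was 1.40-fold, short of the 2-fold threshold that the study used for its genes. How far reads of the construct entered this count was not tested. Library totals were 25507595 to 29444841 counted pairs. Of all genes tested, 25.9% were higher and 25.9% lower in HG-OE (edgeR, adjusted p under 0.05). Of 7 tested markers of renal epithelium, 4 were higher and 2 lower by this rule, with a median log2 fold change of 0.25. The keratins KRT8 and KRT18 and the intermediate filament gene VIM had the largest changes: KRT8 had 296 ± 3.45 CPM in HG-NC against 755 ± 198 CPM in HG-OE, VIM had 808 ± 3.58 and 1500 ± 70.0 CPM, and KRT18 had 206 ± 1.01 and 349 ± 120 CPM. The 2 lower markers were KRT19 (232 ± 8.91 CPM in HG-NC against 159 ± 28.2 CPM in HG-OE) and PAX8 (637 ± 29.8 and 447 ± 34.4 CPM). The mature tubule markers that passed the low-count filter (3 of 5 in the table) summed to 3.89 to 5.62 CPM in HG-NC and 4.20 to 4.88 CPM in HG-OE. HG-OE replicate 3 stood apart from the other libraries: the liver marker ALB had 4359 counts there and 0 to 78 elsewhere. CDH1, a renal marker that failed the low-count filter, had 384 counts there and 2 to 10 elsewhere, and APOA1 had 48 and 0 to 6. KRT8 had 18256, 19006 and 28781 counts in HG-OE replicates 1, 2 and 3, and KRT18 had 8054, 8221 and 14286. Results that rest on this library are also given without it for hosts that averaged at least 100 counts. Of the markers of leukocytes, endothelium, mesenchyme and liver, 3 of 8 passed the low-count filter. PDGFRB was higher (0.453 ± 0.172 CPM in HG-NC against 2.15 ± 0.120 CPM in HG-OE), CD68 was lower (2.15 ± 0.353 and 1.35 ± 0.163 CPM), COL1A1 was not called, and PTPRC and CDH5 had at most 3 counts per library. The part of these markers in the host levels was not tested.

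In HG-NC, the hosts spanned more than 2 orders of magnitude in FPKM (fragments scaled to a length per gene and to library size). GAS5 was highest at 103 ± 5.33 FPKM (n = 3), followed by SNHG1 at 60.6 ± 1.67, SNHG6 at 59.4 ± 2.60 and SNHG29 at 58.1 ± 3.06 FPKM. The libraries of SNHG1 and SNHG6 overlapped, as did those of SNHG6 and SNHG29, so the order among these 3 is not set. ZFAS1 (50.8 ± 2.16 FPKM), SNHG32 (39.2 ± 4.78 FPKM), SNHG15 (30.4 ± 0.731 FPKM) and SNHG16 (20.3 ± 0.876 FPKM) came next without overlap. The lowest of the members tested were SNHG14 at 0.370 ± 0.0100, SNHG5 at 0.270 ± 0.0265 and SNHG22 at 0.127 ± 0.0306 FPKM. SNHG14 spans 441754 bp and stood at 50.9 ± 0.924 CPM in HG-NC, so its low FPKM does not mark few counts.

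**Figure D1:**
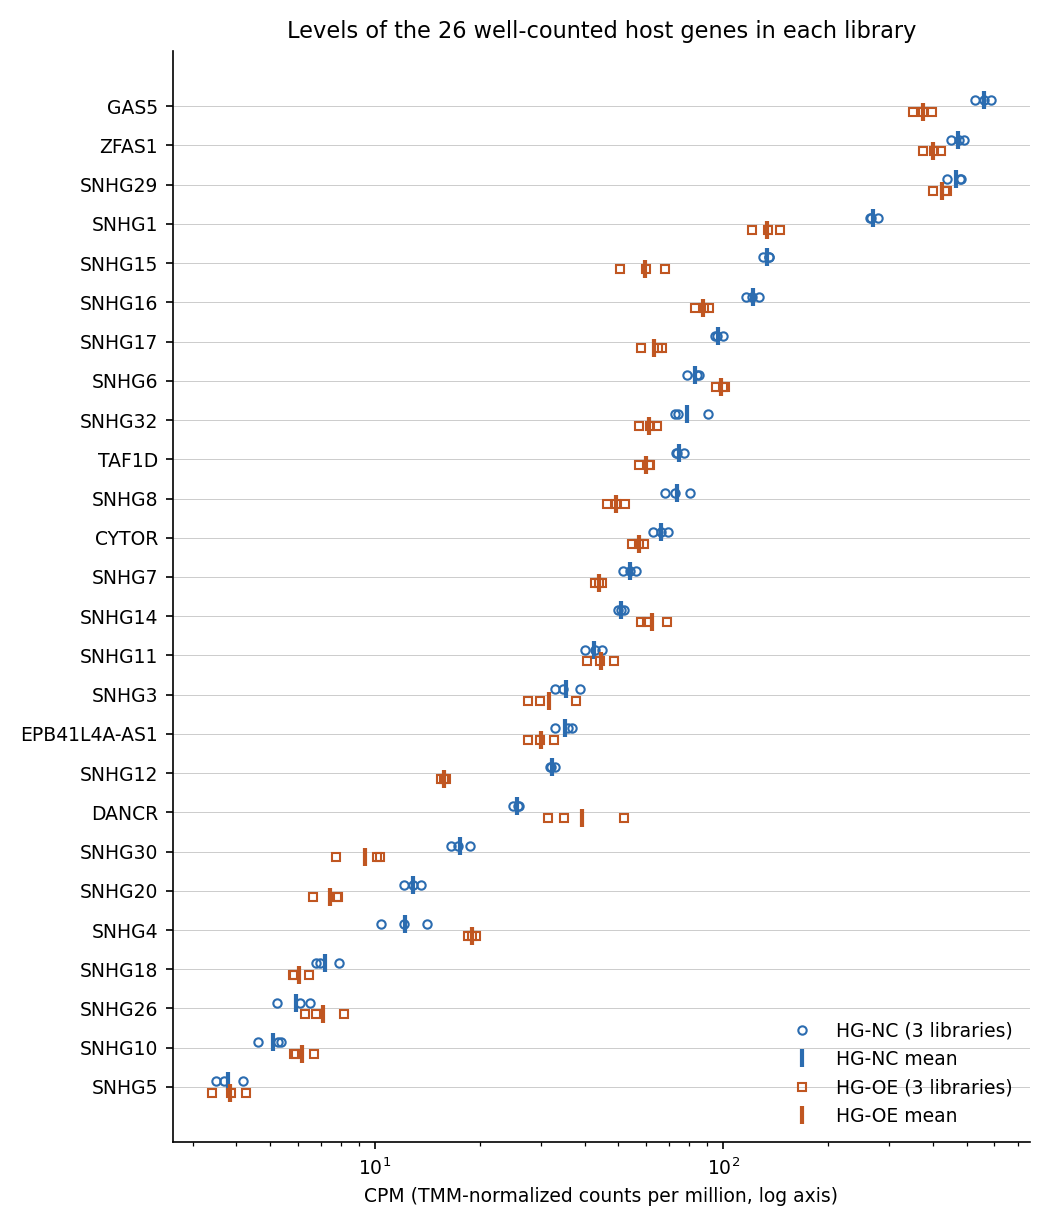
CPM (log axis) of the 26 members that averaged at least 100 counts, ordered by their HG-NC mean. Circles are the 3 HG-NC libraries, squares the 3 HG-OE libraries and ticks the group means, and SNHG1, SNHG15 and SNHG12 show the widest gaps between the groups.

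Summed over the 34 members, the host transcripts were lower in hnRNP-F overexpressing cells. The sums were 2951, 2727 and 2858 CPM in HG-NC replicates 1, 2 and 3 and 2275, 2184 and 2161 CPM in HG-OE replicates 1, 2 and 3, without overlap (exact two-sided permutation p = 0.1). The group means, 2845 ± 112 and 2207 ± 60.0 CPM, amount to a change of -22.4%. GAS5, SNHG29 and ZFAS1 hold 53.4% of the list's counts, GAS5 and SNHG1 contribute 29.0% and 21.2% of the drop, and the sum without GAS5 changed by -19.8%. In bulk RNA, fewer cells and less RNA per cell cannot be told apart.

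Gene by gene, the list moved in both directions, with more members lower. Of 31 members that passed the low-count filter, HG-OE was lower in 16 and higher in 6 with an adjusted p under 0.05 (edgeR's quasi-likelihood test, Benjamini-Hochberg over 17142 genes). Of all genes tested, 25.9% were lower and 25.9% higher by the same rule. The members' share was 51.6% lower and 19.4% higher. With the study's further threshold of a 2-fold change, 3 members were lower (SNHG1, SNHG12 and SNHG15) and 1 was higher (SNHG22), against 2.13% and 3.69% of all genes. The median log2 fold change of the 31 members was -0.23, beside 0.01 over all genes tested. The groups did not overlap in CPM for 25 of the 31 members (18 with HG-OE below, 7 above), and for 59.0% of all genes.

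The counts were also read among well-counted genes alone. Of the 26 members that averaged at least 100 counts, 16 were lower and 4 higher. Over all genes with that many counts, 32.2% were lower and 29.7% higher. Among 580 other long non-coding RNAs at this level, 19.5% were lower and 30.5% higher, with a median log2 fold change of 0.06, beside -0.24 for the 26 hosts.

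The 3 hosts that fell at least 2-fold hold different kinds of snoRNA. SNHG15, whose only annotated snoRNA is the box H/ACA guide SNORA9, had 136, 130 and 135 CPM in HG-NC against 68.2, 60.1 and 50.6 CPM in HG-OE. Every HG-OE library lay below every HG-NC library. The log2 fold change was -1.17, with a standard error of 0.0770 and an adjusted p of 5.23e-08. SNHG12 carries the box H/ACA guides SNORA16A, SNORA44 and SNORA61 and the box C/D guide SNORD99. Its libraries were tightly grouped, at 32.0, 31.9 and 33.0 CPM in HG-NC against 15.8, 15.5 and 16 CPM in HG-OE (log2 fold change -1.04, standard error 0.0598, adjusted p = 1.49e-08).

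SNHG1 carries 8 box C/D snoRNAs, SNORD22 and SNORD25 to SNORD31, and its spliced exons are a long non-coding RNA. It lies on chromosome 11 of GRCh38 from 62851978 to 62855953 (GENCODE 44). Its values were 278, 264 and 265 CPM in HG-NC replicates 1, 2 and 3 and 145, 134 and 121 CPM in HG-OE replicates 1, 2 and 3. The fitted change was -50.4%, just past the 2-fold threshold (log2 fold change -1.01, standard error 0.0563, adjusted p = 1.11e-08). The log2 fold change of SNHG1 was -0.95 without HG-OE replicate 3 and -0.99 without HG-NC replicate 1, both short of 2-fold with the adjusted p still under 0.05. SNHG30, with SNORD7, came just outside the threshold, at 16.5, 17.3 and 18.7 CPM in HG-NC against 7.72, 10.3 and 10.1 CPM in HG-OE (log2 fold change -0.90, standard error 0.109, adjusted p = 1.21e-05).

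Among the other hosts that hold only box C/D snoRNAs, SNHG16, SNHG32, ZFAS1 and SNHG29 were also called lower. SNHG16, with SNORD1A to SNORD1C, had 127, 116 and 121 CPM in HG-NC against 82.9, 91.2 and 88.3 CPM in HG-OE (log2 fold change -0.47). SNHG32 had 90.2, 72.6 and 74.0 CPM in HG-NC against 64.7, 57.4 and 61.5 CPM in HG-OE (log2 fold change -0.37). ZFAS1, antisense to the start of ZNFX1 and host of 3 SNORD12 genes, had 490, 450 and 475 CPM in HG-NC against 423, 404 and 376 CPM in HG-OE (log2 fold change -0.23, standard error 0.0470, adjusted p = 8.66e-04). SNHG29 had 483, 439 and 477 CPM in HG-NC against 432, 401 and 439 CPM in HG-OE, with the highest HG-OE and the lowest HG-NC library nearly equal. Its log2 fold change was -0.14 (adjusted p = 0.0238), and this call was lost without HG-NC replicate 1, HG-NC replicate 3 or HG-OE replicate 2 and in each of the 3 tests on FPKM.

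In the same class, SNHG6 and SNHG14 rose. SNHG6, host of SNORD87, had 84.0, 78.9 and 85.4 CPM in HG-NC against 99.9, 95.6 and 101 CPM in HG-OE (log2 fold change 0.26, adjusted p = 3.07e-04). SNHG14 had 50.0, 51.8 and 51.0 CPM in HG-NC against 60.6, 68.8 and 58.0 CPM in HG-OE (log2 fold change 0.29, adjusted p = 1.08e-03), and its call was lost in each of the 3 tests on FPKM. The remaining well-counted members of this class, SNHG18, SNHG26 and SNHG5, did not pass the test. SNHG18 had 6.76, 7.87 and 6.94 CPM in HG-NC against 6.48, 5.80 and 5.87 CPM in HG-OE. SNHG26 had 6.49, 5.25 and 6.08 CPM against 6.79, 8.14 and 6.28 CPM, and SNHG5 had 4.17, 3.69 and 3.51 CPM against 3.86, 3.40 and 4.27 CPM. The groups overlapped for SNHG26 and SNHG5. SNHG26 was called higher without HG-OE replicate 3 (log2 fold change 0.33, adjusted p = 0.0249), and SNHG18 was called lower in 2 of the 3 tests on FPKM.

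Of 10 tested hosts that hold only box H/ACA snoRNAs, 5 were lower and 2 higher. Next to SNHG15, the largest falls were those of SNHG17 and SNHG8. SNHG17, which spans 5 SNORA71 genes, had 94.7, 99.8 and 96.1 CPM in HG-NC against 66.7, 65.0 and 58.2 CPM in HG-OE (log2 fold change -0.61, standard error 0.0526, adjusted p = 5.14e-07). SNHG8, with SNORA24, had 80.5, 67.9 and 72.6 CPM in HG-NC against 49.2, 46.5 and 52.3 CPM in HG-OE (log2 fold change -0.58, adjusted p = 5.79e-06). SNHG7 had 54.0, 51.5 and 56.3 CPM against 42.9, 44 and 44.8 CPM (log2 fold change -0.30). EPB41L4A-AS1, host of SNORA13, had 36.8, 32.9 and 36 CPM against 32.6, 29.8 and 27.5 CPM. Its log2 fold change of -0.23 (adjusted p = 0.0124) no longer passed without HG-NC replicate 1, without HG-NC replicate 3, or with limma on log2(FPKM + 1) without a filter.

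SNHG4 and DANCR were the 2 risers of this class. SNHG4, host of SNORA74A and SNORA74D, had 14.1, 10.4 and 12.1 CPM in HG-NC against 19.5, 19.0 and 18.5 CPM in HG-OE (log2 fold change 0.64, standard error 0.0996, adjusted p = 1.09e-04). DANCR, a long non-coding RNA known for restraining differentiation and host of SNORA26, had 25.8, 24.9 and 25.8 CPM in HG-NC against 31.4, 34.9 and 52.0 CPM in HG-OE. All HG-OE libraries lay above HG-NC, but replicate 3 was far above replicates 1 and 2. The log2 fold change of DANCR was 0.63 (adjusted p = 1.73e-03) with all libraries and 0.38 (adjusted p = 4.47e-06) without HG-OE replicate 3, and the call was lost with limma on log2(FPKM + 1) without a filter (adjusted p = 0.0953). SNHG11 had 40.2, 42.8 and 44.9 CPM in HG-NC against 48.6, 44.3 and 40.5 CPM in HG-OE, which overlap (adjusted p = 0.482).

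SNHG3, host of SNORA73A and SNORA73B, depended on 1 library. It had 38.8, 32.9 and 34.6 CPM in HG-NC against 27.5, 29.8 and 37.7 CPM in HG-OE, and did not pass the test with all libraries (log2 fold change -0.16, adjusted p = 0.193). Without HG-OE replicate 3 it was lower, with a log2 fold change of -0.30 (adjusted p = 1.78e-04). The nested SNORA73B gene had 27, 14 and 25 counts in HG-NC and 25, 15 and 637 counts in HG-OE replicates 1, 2 and 3, so the same library held the excess of the snoRNA. Whether reads of SNORA73B entered the count of SNHG3 was not tested.

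Of the 4 hosts of both kinds of snoRNA, 3 were lower and none higher, where 25.9% of all genes tested were lower. GAS5, known for growth arrest and for binding the glucocorticoid receptor, had 587, 529 and 562 CPM in HG-NC against 398, 374 and 351 CPM in HG-OE. The fitted log2 fold change of GAS5 was -0.58 ± 0.0498 (standard error; adjusted p = 5.28e-07). It was the largest drop of the list in CPM, from 559 ± 29.0 to 374 ± 23.3. TAF1D, the protein-coding member, encodes a subunit of the RNA polymerase I factor SL1. It had 77.1, 73.6 and 73.2 CPM in HG-NC against 61.1, 57.2 and 61.5 CPM in HG-OE (log2 fold change -0.32, adjusted p = 7.47e-05).

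The scaRNA hosts were counted less deeply and moved both ways. SNHG20, with SCARNA16, had 12.2, 12.9 and 13.5 CPM in HG-NC against 7.79, 7.83 and 6.62 CPM in HG-OE (log2 fold change -0.79, adjusted p = 1.97e-05). SNHG10, with SCARNA13, had 5.39, 4.62 and 5.26 CPM against 5.93, 6.70 and 5.84 CPM and did not pass the test (adjusted p = 0.0820), although it did without HG-OE replicate 3 (log2 fold change 0.31, adjusted p = 0.0451). SNHG22, with SCARNA17, passed both thresholds upward on few counts. It had 9, 8 and 13 counts in HG-NC and 21, 19 and 31 counts in HG-OE (log2 fold change 1.11, standard error 0.356, adjusted p = 0.0170), and its call was lost without HG-NC replicate 1, HG-NC replicate 2 or HG-OE replicate 3, with DESeq2 and with limma on log2(FPKM + 1), with or without a filter.

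CYTOR, without an annotated snoRNA, had 69.3, 66.1 and 62.9 CPM in HG-NC against 57.3, 59.3 and 54.8 CPM in HG-OE (log2 fold change -0.21, adjusted p = 3.61e-03). Its near-identical copy MIR4435-2HG had 47.5 ± 1.25 CPM in HG-NC against 48.8 ± 1.92 CPM in HG-OE. How the counting split reads between the copies was not given in the sources used here, so the value for CYTOR is uncertain.

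Of the 8 members with fewer than 100 counts on average, 5 were tested, at means of 16.8 to 87.7 counts per library. Of these 5, 2 passed the adjusted p, both upward, where 25.9% of all genes tested were higher. Beside SNHG22 this was SNHG19, named here after its values were seen. It had 64, 54 and 59 counts in HG-NC and 107, 96 and 146 in HG-OE (log2 fold change 0.85, adjusted p = 1.95e-03). Without HG-OE replicate 3 the log2 fold change of SNHG19 was 0.66, still called. SNHG27, also named after its values were seen, failed the low-count filter. It had 9, 8 and 18 counts in HG-NC and 0 in every HG-OE library, so its mean CPM was at least 4.17-fold lower, taking 3 counts per library as the limit that a count of 0 allows. MEG3, an imprinted growth suppressor transcript, had 1 count in all 6 libraries together, and SNHG31 had 2 to 21 counts per library.

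**Figure D2:**
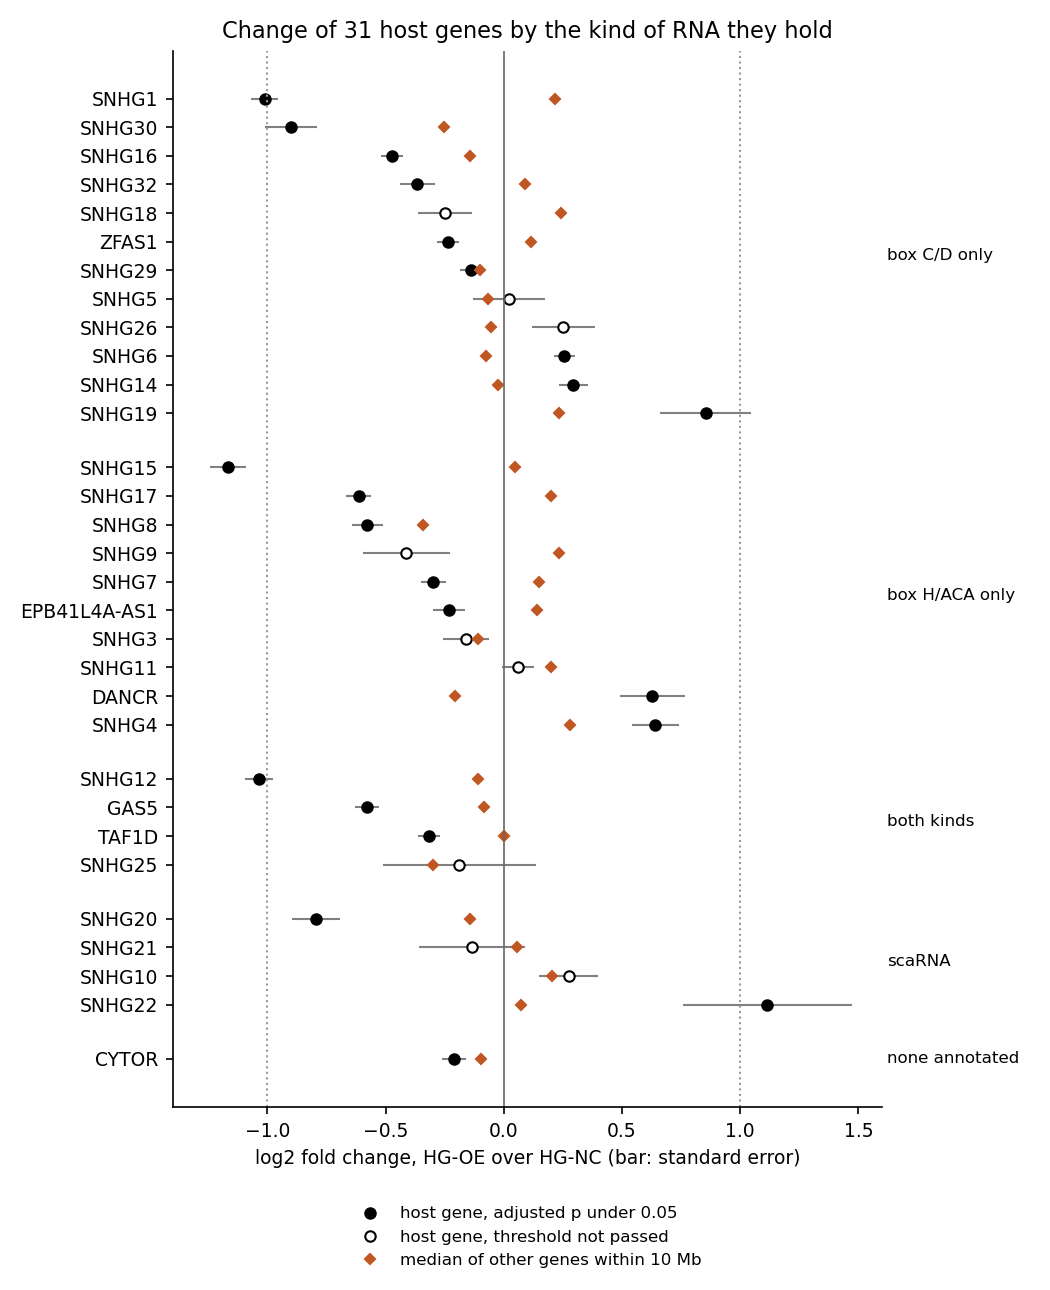
Log2 fold change of HG-OE over HG-NC with its standard error for the 31 members tested, grouped by the kind of RNA they hold. Filled circles passed an adjusted p of 0.05, dotted lines mark a 2-fold change, diamonds give the median of other well-counted genes within 10 Mb, and both rises and falls appear among the box C/D, box H/ACA and scaRNA hosts.

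By class, the median log2 fold change was -0.19 for the box C/D hosts, -0.26 for the box H/ACA hosts, -0.45 for the hosts of both kinds and 0.07 for the scaRNA hosts. The hosts were also split by their start. Of the 8 with a C and at least 5 pyrimidines, 4 were lower and 2 higher, with a median of -0.24. Of 19 tested hosts with another start, 11 were lower and 3 higher, with a median of -0.21. Of all genes tested, 25.9% were lower and 25.9% higher. The split rests on RefSeq starts, and those of GAS5 and SNHG14, for example, lie outside the GENCODE 44 span. An effect of the start on the change was therefore not tested. SNHG12 and SNHG4, which both have a C followed by a long pyrimidine run, moved in opposite directions.

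Several hosts start near a gene on the opposite strand, and the pairs differed in how far host and partner moved together. SNHG1 and SLC3A2, which encodes the heavy chain of amino acid transporters, start 51 bp apart. SLC3A2 had 495 ± 3.56 CPM in HG-NC against 452 ± 32.8 CPM in HG-OE (log2 fold change -0.13, adjusted p = 0.0328). This call was lost in 7 of 15 alternatives, namely each HG-NC library left out, HG-OE replicate 3 left out (log2 fold change -0.07) and the 3 tests on FPKM. The ratio of SNHG1 to SLC3A2 counts was 0.562, 0.536 and 0.532 in HG-NC and 0.303, 0.291 and 0.291 in HG-OE, with no overlap. By contrast, ZFAS1 and ZNFX1, with starts 248 bp apart, kept a ratio of 3.98 ± 0.258 in HG-NC and 4.14 ± 0.205 in HG-OE (exact two-sided permutation p = 0.5), and ZNFX1 was itself lower (log2 fold change -0.29).

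GAS5 counts over those of its neighbour ZBTB37, which starts 800 bp away, went from 35.9 ± 0.952 to 28.2 ± 1.68. ZBTB37 was itself lower (log2 fold change -0.23, adjusted p = 0.0231, edgeR), a call lost in 7 of 15 alternatives. The ratio of TAF1D to MED17 went from 34.6 ± 3.65 to 19.8 ± 4.49, with MED17 at only 52 to 112 counts per library. This pair rests on the GENCODE 44 start of TAF1D at chr11:93784391. The RefSeq start window of TAF1D lies at chr11:93741476-93741535, so RefSeq gives no start region shared with MED17. The ratio of SNHG18 to SEMA5A went from 0.669 ± 0.0740 to 0.466 ± 0.0234. MED17 and SEMA5A had log2 fold changes of 0.52 and 0.27 of their own (adjusted p 0.0381 and 0.0261, edgeR), but MED17 lost its call in 10 of 15 alternatives and SEMA5A in 8, including DESeq2 (adjusted p 0.140 and 0.101) and the 3 tests on FPKM. The ratio of SNHG10 to GLRX5 rose from 0.119 ± 0.0103 to 0.140 ± 0.0125. The partner of SNHG16, an RNA with 3 to 26 counts per library, was not tested.

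Hosts that lie close together also differed. SNHG17 and SNHG11 start 10934 bp apart on chromosome 20, on opposite strands, and the ratio of their counts fell from 2.28 ± 0.118 to 1.43 ± 0.0490. SNHG3 and SNHG12 start 77152 bp apart on chromosome 1, and the ratio of SNHG3 to SNHG12 rose from 1.10 ± 0.0993 to 2.01 ± 0.319, with 2.36 in HG-OE replicate 3. Of 8 such ratios, 7 had no overlap between the groups. For single genes, the groups did not overlap in 59.0% of all tested, and ratios of other gene pairs were not counted. Each of the 7 ratios had an exact two-sided permutation p of 0.1, the smallest possible. After Benjamini-Hochberg adjustment over the 8 it was 0.114, so none could pass 0.05 in this design.

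**Figure D3:**
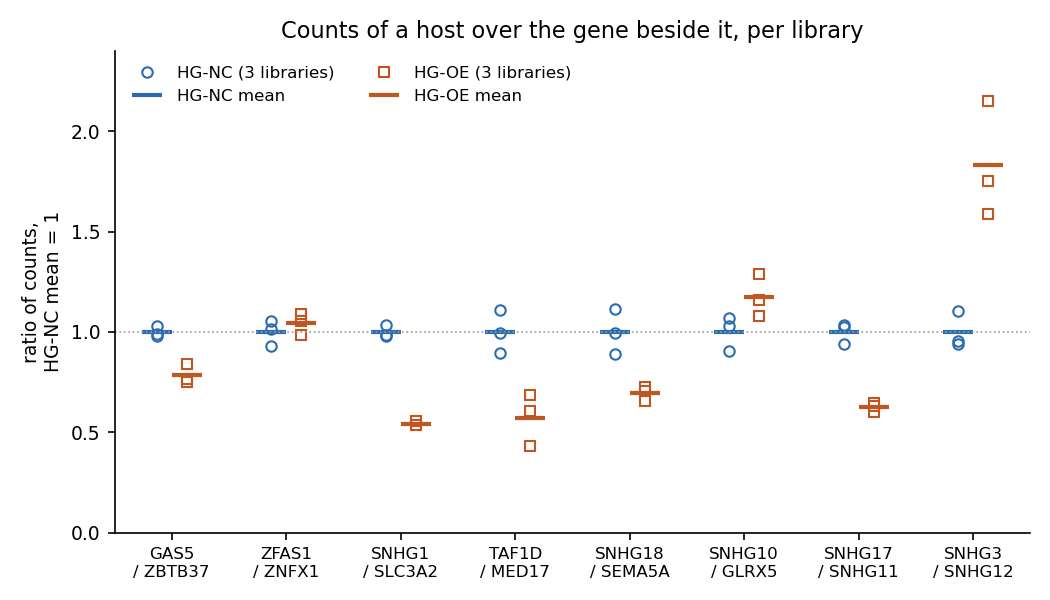
Ratio of the counts of a host to those of the gene beside it in each library, scaled to the HG-NC mean of that ratio. Circles are HG-NC and squares HG-OE libraries with bars at the group means, and SNHG1 over SLC3A2 drops below all HG-NC values while ZFAS1 over ZNFX1 overlaps.

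Regional shifts were compared because other genes of a chromosome segment can move together. The median log2 fold change of other well-counted genes with a start within 10 Mb of a member was -0.34 to 0.28 over the tested members, from 33 to 229 genes each. After this median was taken off, all 22 called members kept their sign, and 21 of 31 tested members were below their neighbours. How many other genes keep their sign or lie below such a median was not counted. SNHG1 went from -1.01 to -1.23 and SNHG17 from -0.61 to -0.81, because their neighbours were higher. SNHG8, whose neighbours had the lowest median, went from -0.58 to -0.24, SNHG4 from 0.64 to 0.36 and SNHG29 from -0.14 to -0.03.

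The other annotated snoRNA hosts were counted by the same rule. Of 240 tested protein-coding hosts, 77 were lower (32.1%) and 78 higher (32.5%), with a median log2 fold change of -0.0057, beside 25.9% of all genes in each direction. Without ribosomal protein genes, 76 of 212 were lower (35.8%) and 58 higher (27.4%), with a median of -0.04. Over all well-counted genes, these shares were 32.2% and 29.7%. HSPA8, a heat shock cognate chaperone, had 333 ± 10.4 CPM in HG-NC against 995 ± 132 CPM in HG-OE, and CAMK1D, a calcium-dependent kinase, had 8.08 ± 0.431 and 1.92 ± 0.395 CPM. Of 15 tested non-coding hosts outside the list, 4 were lower (26.7%) and 1 higher (6.67%), with a median of -0.16. UBA6-AS1 fell from 65.7 ± 2.17 to 42.8 ± 2.24 CPM and DNAAF3-AS1 from 4.38 ± 0.296 to 3.16 ± 0.367 CPM, while CTD-2555K7.2 rose from 1.06 ± 0.199 to 1.77 ± 0.352 CPM.

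The genes of the snoRNP pathway were described from lists written for this comparison. Of 12 box C/D snoRNP and assembly genes, 11 were lower (91.7%) and none higher, with a median log2 fold change of -0.24. Over all well-counted genes, 32.2% were lower and 29.7% higher. NOP58, a core protein, fell from 169 ± 8.06 to 106 ± 5.90 CPM (log2 fold change -0.68, adjusted p = 1.17e-07). NOP56, its partner, fell from 397 ± 1.98 to 287 ± 6.60 CPM, and the assembly factor ZNHIT3 from 63.5 ± 2.80 to 43.6 ± 0.791 CPM. Of 6 box H/ACA genes, 3 were lower (50.0%) and 2 higher (33.3%), with a median of -0.22. The assembly factor NAF1 fell by 0.52 and the core protein GAR1 by 0.42 on the log2 scale, while the core protein NHP2 rose by 0.46.

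TOP messages and decay factors were set beside the hosts for the features they share with them. The shares over all well-counted genes were 32.2% lower and 29.7% higher. Of 17 TOP mRNAs outside ribosomal proteins, 13 were higher (76.5%) and 1 lower (5.88%), with a median log2 fold change of 0.20. EIF4B, EIF3L and EEF1D, which encode translation factors, rose by 0.63, 0.56 and 0.52 on the log2 scale. Of 79 ribosomal protein genes, 49 were higher (62.0%) and 13 lower (16.5%), with a median of 0.14. Of 19 factors of nonsense-mediated decay, 10 were lower (52.6%) and 2 higher (10.5%), with a median of -0.15. UPF3B, a core factor that binds the exon junction complex, fell from 107 ± 7.43 to 64.6 ± 3.63 CPM, SMG9 fell by 0.52 and RBM8A, a protein of the exon junction complex, rose by 0.42 on the log2 scale. What part any of these genes had in the host levels was not tested.

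**Figure D4:**
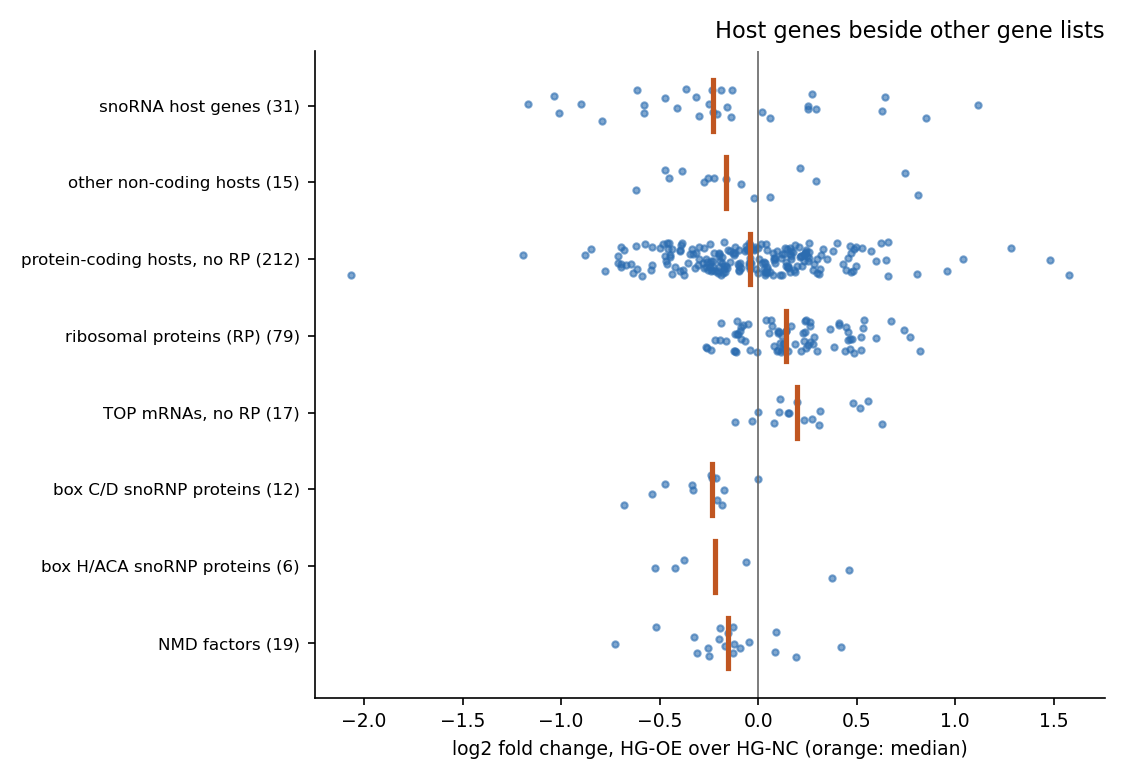
Log2 fold change of HG-OE over HG-NC for each tested gene (points) of the host list and 7 other lists, with the number of genes in brackets and an orange bar at the median. The hosts (median -0.23) and the box C/D snoRNP genes (median -0.24) lie mostly below 0, and the TOP mRNAs (median 0.20) and ribosomal protein genes (median 0.14) mostly above.

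The snoRNAs inside the hosts were barely counted in these poly(A) libraries. Of the snoRNAs nested in members, 13 had a row in the count table, with 39 to 57 counts in all per HG-NC library and 45, 53 and 735 counts in HG-OE replicates 1, 2 and 3. Without SNORA73B the sums were 25 to 30 counts in HG-NC and 20, 38 and 98 counts in HG-OE. Over all 168 snoRNA and scaRNA genes of the table, HG-NC libraries had 423 to 536 counts and HG-OE libraries had 607, 642 and 1893 counts. A level of mature snoRNA cannot be read from them, since snoRNAs carry no poly(A) tail.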

How the data were processed

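Poly(A) RNA of HK-2 cells was sequenced as directional libraries, 3 per group. The labels also name a kit for total RNA. The authors aligned reads to GRCh38 with HISAT2 (submitters' processing notes) and deposited whole-number counts per gene, without normalization. They also deposited FPKM values computed from those counts. The methods name ComBat_seq, and whether it was applied to these counts, and which strand setting was used in counting, are not given in the sources used here.

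The members and the gene lists were chosen with earlier results of these data known. Genes were filtered by filterByExpr, scaled by TMM and compared with edgeR 4.0.16 (R 4.3.3), with Benjamini-Hochberg adjustment over 17142 genes. Members that averaged at least 100 counts were named with all values. Those with fewer were named where they passed both thresholds. Neighbouring genes start within 2 kb on the opposite strand, by the GENCODE 44 span of each gene. Of each other list but the ribosomal protein genes and long non-coding RNAs, the 3 genes with the largest change among those called were named, except 1 that is not reported here. snoRNAs inside a member came from GENCODE 44 on the same strand and from RefSeq without a strand check. The 11 of GAS5 came from RefSeq alone. Hosts outside the list were found with GENCODE 44 alone, on the same strand. Sequences came from RefSeq (GRCh38.p14). The promoter table had entries for 30 of 34 members. Depth was 25507595 to 29444841 counts per library, and the limit for a count of 0 covers counting error only. Replicate numbers did not pair the libraries. DESeq2 1.42.0, limma 3.58.1 on log2(FPKM + 1) and log2(FPKM + 0.1), other scalings, other filters and each library left out were alternatives. The steps were tested on simulated data.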

Additional observations from a re-analysis of the deposited data

How the results depend on the processing

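Over the 15 alternatives of scaling, filter, test and libraries, the members called numbered 3 to 7 higher and 14 to 19 lower, and no called host changed sign. The count of members higher was 3 with limma on log2(FPKM + 1) without a filter. The count past 2-fold, 4 with all libraries, was 2 with limma on log2(FPKM + 1), with or without a filter, and 2 to 5 with a library left out (2 without HG-NC replicate 1). The median of the hosts was -0.2044 to -0.2787 with a library left out. With the replicate number as a block, 6 were higher, 16 lower and 4 past 2-fold, and the median was -0.2335. Same-numbered libraries had correlations of deviations of -0.027 to 0.030, so the numbers were not taken as pairs, and the block changed no call on a host. MED17, the neighbour of TAF1D, lost its call with the block (log2 fold change 0.51). The log2 fold change of SNHG5 was -0.0001 with limma on log2(FPKM + 1), with or without a filter, -0.0008 on log2(FPKM + 0.1), and -0.0592 to 0.1019 with a library left out. That of SNHG11 was -0.0093 to 0.1233 with a library left out. Neither was called with all libraries.

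Of the other lists, the median of the box C/D snoRNP genes was -0.2519 without the low-count filter, -0.2527 on log2(FPKM + 0.1) and -0.2222 to -0.2763 with a library left out, and that of the decay factors was -0.1146 to -0.1773. Of the 240 protein-coding hosts, ribosomal proteins included, 50 were higher with limma on log2(FPKM + 1) without a filter, against 78 with the edgeR test, and their median was 0.0138 with DESeq2 against -0.0057. Non-coding hosts outside the list are few and their values turn: 0 were higher with DESeq2 (3642 genes higher in all) and with limma on log2(FPKM + 1) without a filter, 2 without a low-count filter, with at least 10 counts in every library and on log2(FPKM + 0.1), and 0 to 2 with a library left out. Their median was 0.1996 without a low-count filter, 0.2088 with DESeq2, -0.0359 on log2(FPKM + 1), 0.0095 on the same without a filter, and -0.0575 to -0.2025 with a library left out. These settings test more genes with low counts, and the cause of the turn was not tested. DESeq2 gave no adjusted p for some genes with low counts, which were not counted as lost. After the data were seen, the median of the genes within 10 Mb was taken off as a further alternative, which gave a median of -0.2353 over the hosts.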
